A study of Mus musculus with 6 samples.

Results

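The cation-chloride cotransporters analysed here are 4 genes of the SLC12 family, chosen by their gene symbol with all of their probes on the array. They are Slc12a2, which encodes the sodium-potassium-chloride cotransporter NKCC1, and 3 genes for potassium-chloride cotransporters, Slc12a5 (KCC2), Slc12a4 (KCC1) and Slc12a7 (KCC4). The 4 genes had 7 of the 25696 probes, and 4 of these 7 probes were among the 13755 detected on enough arrays to be tested. Slc12a2 had 4 probes and each of the other genes had 1. Expression was measured on Illumina mouse Ref8 bead arrays in total RNA from brains of C57/BL6 embryos at E12.5, 1 array for each of 6 samples labelled as biological replicates. All 6 brains were homozygous for the inverted gene trap in Rest, written Rest GTi/GTi, and for the floxed p53 alleles, written p53 fl/fl. The 3 knockout brains in addition carried the transgene Nestin Cre+, which the 3 control brains, from littermates, lacked. For this comparison the paper's legend gives 4 embryos for each genotype, against the 3 samples in each group here. The Nestin promoter drives Cre in neural progenitors and their progeny, and whether Cre acted in the vessels, blood or meninges of the same brains was not measured. A group without Cre differs from the knockout in the Cre transgene as well as in recombination, which the paper describes for both Rest and Trp53.

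Cation-chloride cotransporters carry chloride across the plasma membrane together with sodium and potassium, or with potassium alone, without spending ATP themselves. NKCC1 uses the sodium gradient to bring chloride into cells and the potassium-chloride cotransporters use the potassium gradient to export it, so that their balance sets the direction of chloride flow through open GABA-A and glycine receptors. Immature neurons generally hold high chloride with NKCC1 prominent, and KCC2, which is largely restricted to neurons, increases as neurons mature. REST is a transcriptional repressor that binds RE1 elements and keeps neuronal genes low in progenitors and in cells outside the nervous system. RE1 elements have been described in the gene for KCC2. The comparison therefore asks whether Slc12a5 and the genes around it in chloride transport differed between brains with and without Nestin Cre. Since Cre acts on both Rest and the floxed p53 alleles, loss of REST and loss of p53 cannot be told apart here.

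The sequences just before the annotated starts of Slc12a5 are shown because this is the member with described RE1 elements. RefSeq (build GRCm38.p6) places Slc12a5 at chr2:164960846-164999731 on the plus strand, and its promoter table holds a pair of starts 7142 bases apart. The 250 bases before each start follow, 5′ to 3′ on the plus strand, at chr2:164960596-164960845 for the upstream start and chr2:164967738-164967987 for the downstream start, with the palindromic E-box CACGTG, a letter string bound by factors such as USF1, in capitals.
Slc12a5 upstream start: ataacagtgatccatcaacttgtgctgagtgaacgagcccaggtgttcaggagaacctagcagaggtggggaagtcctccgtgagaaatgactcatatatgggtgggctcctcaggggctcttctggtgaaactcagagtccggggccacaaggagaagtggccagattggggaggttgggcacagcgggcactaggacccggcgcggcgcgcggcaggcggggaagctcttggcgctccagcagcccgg
Slc12a5 downstream start: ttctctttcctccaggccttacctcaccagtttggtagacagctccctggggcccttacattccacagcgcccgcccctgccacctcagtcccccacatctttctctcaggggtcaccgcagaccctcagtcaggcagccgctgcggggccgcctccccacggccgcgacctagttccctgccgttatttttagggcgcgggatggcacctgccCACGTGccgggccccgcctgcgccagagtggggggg
GC content was 61.2% in the upstream window and 67.2% in the downstream window, against a median of 52.4% over all 32851 windows of this length. The left arm of RE1, searched as CAGCACC on both strands, and the right arm, searched as GGACAGC on both strands, had 0 matches in either Slc12a5 window. These arms were present in 5.73% and 5.28% of all windows. They also had 0 matches in the 1 window of Slc12a4 and the 2 windows of Slc12a7, which overlap each other. Slc12a2 was not searched. No other letters of RE1 were searched, and the introns of Slc12a5 were not analysed here. CACGTG was present in 6.02% of all windows, with 1 match in the downstream Slc12a5 window, 36 bases before the start, and 1 in a window of Slc12a7, 38 bases before the start.

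Slc12a5, the neuronal chloride exporter KCC2, had the largest difference among the members. Its 1 probe (ILMN_1224363) read 7.64, 7.78 and 7.22 on the log2 scale in knockout replicates 1, 2 and 3. The control replicates 1, 2 and 3 read 7.33, 6.95 and 6.56. The groups overlapped, since knockout replicate 3 was below control replicate 1, while the other 2 knockout brains were above all 3 controls. The knockout mean was 7.55 ± 0.29 and the control mean 6.95 ± 0.39 (SD, n = 3 each). The difference was 0.60 on the log2 scale (SE 0.24, 95% confidence interval 0.04 to 1.17), or 1.52-fold higher in knockout brains, with an interval of 1.03-fold to 2.24-fold. Its p was 0.039 before and 0.999 after Benjamini-Hochberg adjustment over all tested probes in limma, so the difference did not pass the test. Of all tested probes, 2.25% (310 of 13755) were likewise higher in knockout brains with an unadjusted p under 0.05.

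The Slc12a5 signal was close to background. The intensities as deposited, on a linear scale, were 447, 468 and 397 in the knockout brains and 409, 370 and 338 in the control brains. The detection p-value, which sets a probe's signal against negative control beads, was 0.00752, 0 and 0.0138 in the knockout brains and 0.00877, 0.0213 and 0.0526 in the control brains. All 3 knockout arrays and 2 of the 3 control arrays therefore lay under the detection limit of 0.05, with control replicate 3 just outside it. The size of the difference depended on how the background was treated. It was 0.23 (SE 0.12) without background correction and 0.36 (SE 0.15) with normexp correction at an offset of 50. Leaving out knockout replicate 2, the brain with the highest value, gave 0.49 (SE 0.26, unadjusted p = 0.114).

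**Figure D1:**
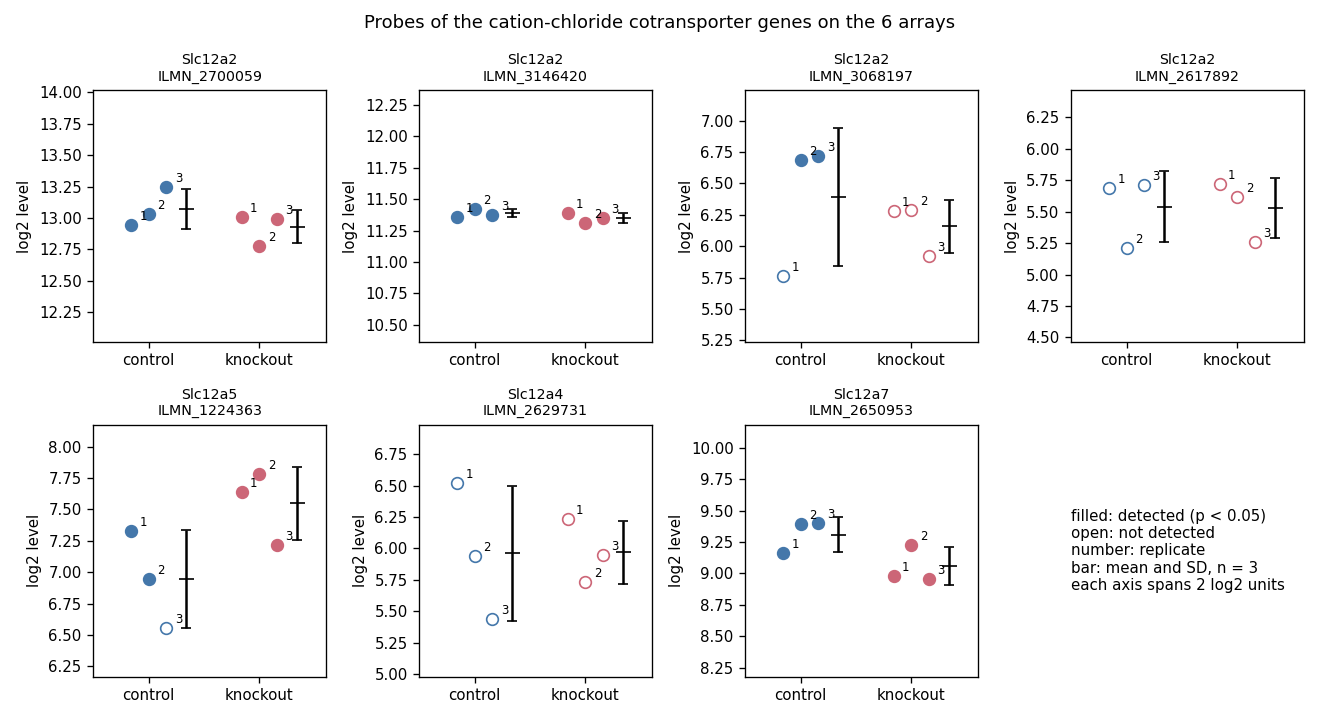
Log2 level of each probe of Slc12a2, Slc12a5, Slc12a4 and Slc12a7 on the 3 control (blue) and 3 knockout (red) arrays, with numbers for the replicate, filled points for detected signals, open points for signals not detected and bars for the mean and SD. Each axis spans the same number of log2 units but starts at a different level. The groups overlap for all 7 probes, and the Slc12a5 means of 7.55 and 6.95 lie furthest apart among the 4 tested probes.

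Slc12a2 encodes NKCC1, the chloride importer of immature neurons and progenitors, which is also abundant in choroid plexus epithelium. The gene lies at chr18:57878512-57946821 (GRCm38.p6). Its brightest probe (ILMN_2700059) read 13.01, 12.78 and 12.99 in knockout brains. The control brains read 12.94, 13.03 and 13.25. Knockout replicate 2 was the lowest of the 6 arrays and control replicate 3 the highest, and the other 4 arrays lay within the range between them with the groups mixed. The difference of the means, 12.93 ± 0.13 against 13.07 ± 0.16 (SD, n = 3 each), was -0.15 on the log2 scale (SE 0.14, 95% confidence interval -0.47 to 0.18, limma adjusted p = 0.999). The deposited intensities of this probe were 8499, 7292 and 8376 in the knockout and 8111, 8632 and 9986 in the control brains, and the difference was -0.14 without background correction. Without control replicate 3 the difference was -0.06, and without knockout replicate 2 it was -0.08.

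A second detected probe of Slc12a2 (ILMN_3146420) had less spread. It read 11.39, 11.31 and 11.35 in knockout and 11.36, 11.42 and 11.37 in control brains, and the 6 values interleaved. The difference was -0.03 on the log2 scale (SE 0.11, 95% confidence interval -0.29 to 0.22, limma adjusted p = 0.999). Across its 2 tested probes, the intervals for Slc12a2 reached from 0.47 log2 units lower to 0.22 higher in knockout brains, so a larger change in either direction lay outside both intervals.

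The other 2 probes that the annotation gives to Slc12a2 were dim, although all 4 refer to the same RefSeq transcript. ILMN_3068197 read 6.28, 6.29 and 5.92 in knockout brains, where it was detected on 0 arrays, and 5.76, 6.69 and 6.72 in control brains, where it was detected on 2. It did not reach the 3 detected arrays needed for a test, and the limit set by the lowest detectable signal gave no fold for it. ILMN_2617892 was detected on 0 of 6 arrays and lay between 5.21 and 5.72. The probes of Slc12a2 thus disagreed on whether the gene was detected, and their levels are not set against each other, since probes bind with different strength.

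Slc12a7 encodes KCC4, a potassium-chloride cotransporter known best from kidney and inner ear and also present in the embryonic nervous system. It lies at chr13:73733052-73816754. Its probe (ILMN_2650953) read 8.98, 9.23 and 8.96 in knockout brains. The control brains read 9.16, 9.39 and 9.40. Knockout replicates 1 and 3 were below all 3 controls and knockout replicate 2 was above control replicate 1, so the groups overlapped by that single array. The means of 9.06 ± 0.15 and 9.31 ± 0.14 (SD, n = 3 each) differed by -0.26 on the log2 scale (SE 0.14, 95% confidence interval -0.58 to 0.07), or 1.20-fold lower in knockout brains, which did not pass the test (limma, unadjusted p = 0.104, adjusted p = 0.999). Without knockout replicate 2 the difference was -0.34 with an unadjusted p of 0.0447 and an adjusted p of 0.786.

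Slc12a4 encodes KCC1, a widely expressed potassium-chloride cotransporter associated with the regulation of cell volume. It lies at chr8:105943590-105966149. Its probe (ILMN_2629731) was not detected on any of the 6 arrays, with values of 6.23, 5.73 and 5.95 in knockout and 6.52, 5.94 and 5.44 in control brains. The means were 5.97 ± 0.25 and 5.96 ± 0.54 (SD, n = 3 each). No fold or test was given for a signal that neither group showed above background, and a difference in Slc12a4 was not detectable with this probe.

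Over the members, 0 of the 4 tested probes passed an adjusted p of 0.05 in limma, as did 0% of all 13755 tested probes, of which none had an adjusted p below 0.383. The count of members with an unadjusted p under 0.05 was 1 of 4, against 4.59% of all probes (632 of 13755). The knockout and control values did not overlap for 0 of the 4 tested member probes, against 9.3% of all tested probes (1279 of 13755). The median difference of all tested probes was 0.01 on the log2 scale, their median SE was 0.17, and 51.3% of them were higher in knockout brains. Among the members, the SE of the Slc12a5 probe was above this median and those of the tested Slc12a2 and Slc12a7 probes were below it.

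Whether the neuronal exporter and the importer changed unequally was examined within each array, as the log2 value of the Slc12a5 probe minus that of the brightest Slc12a2 probe, set to 0 at the control mean. This quantity was 0.76, 1.13 and 0.36 in the knockout brains. It was 0.52, 0.04 and -0.56 in the control brains. Control replicate 1 lay between knockout replicates 3 and 1, so the groups overlapped. The difference between the group means was 0.75 on the log2 scale (SD 0.38 and 0.54, n = 3 each), and an exact two-sided permutation test over the 20 arrangements gave p = 0.2, where 0.1 is the smallest p that 3 brains against 3 allow. Without control replicate 3 the difference was 0.47. It was 0.38 without background correction and 0.50 with normexp.

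**Figure D2:**
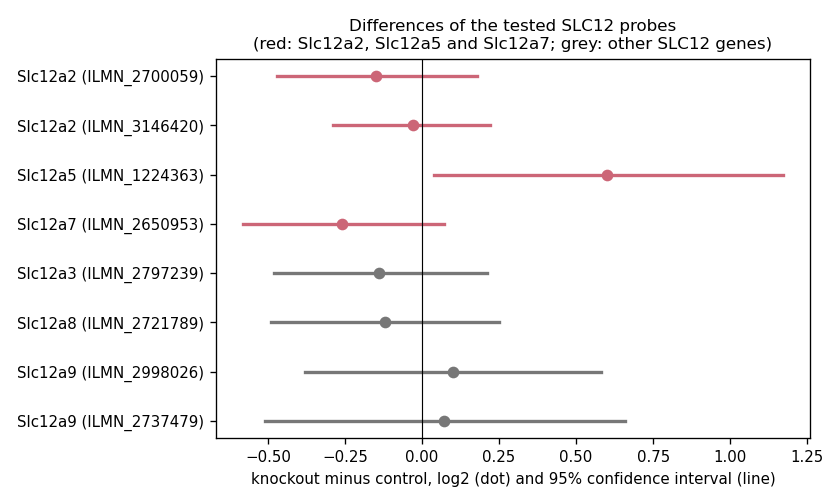
Difference between knockout and control brains on the log2 scale (dot) with its 95% confidence interval (line) for each tested probe of the SLC12 family, in red for Slc12a2, Slc12a5 and Slc12a7 and in grey for other family genes. The interval of Slc12a5, from 0.04 to 1.17, is the only 1 of the 8 that does not include 0, and no probe passed after adjustment over all probes.

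Of the other SLC12 genes, 3 had a tested probe, and 0 of these passed in limma, with 1 higher and 2 lower in knockout brains and a median difference of -0.12. Slc12a3, the thiazide-sensitive sodium-chloride cotransporter of the kidney, had 1 probe detected on all 6 arrays (ILMN_2797239) at 11.03, 11.11 and 11.26 in knockout and 11.45, 11.30 and 11.07 in control brains, while its other 2 probes were detected on none. The difference was -0.14 (SE 0.14) on the log2 scale and the groups overlapped. Slc12a8, a family member reported to transport nicotinamide mononucleotide, differed by -0.12 (SE 0.16). Slc12a9, an orphan member, differed by 0.10 (SE 0.20) and 0.07 (SE 0.25) at its 2 tested probes. The 4 probes of Slc12a1, the loop diuretic-sensitive cotransporter of the kidney, were detected on 0 arrays and lay between 5.13 and 6.30.

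Cation-chloride cotransporters are switched by phosphorylation, in which WNK kinases activate the kinases SPAK (Stk39) and OSR1 (Oxsr1), which stimulate NKCC1 and inhibit the potassium-chloride cotransporters. Of 15 genes for these kinases and for partners of the transporters, 10 were tested, 4 were higher and 6 lower, 0 passed in limma, and the median difference was -0.02 on the log2 scale. Wnk2, a WNK kinase of brain, read 12.19, 11.94 and 11.38 in knockout and 11.63, 11.42 and 11.60 in control brains, a difference of 0.29 (SE 0.22). Knockout replicate 3 was the lowest of the 6 arrays, so the values of the groups were mixed. Oxsr1 differed by -0.16 (SE 0.18) and Wnk1 by -0.10 (SE 0.16), where 2 other probes of Wnk1 differed by -0.26 and -0.35. Epb41l1, which encodes a neuronal linker between membrane and actin of the family that binds KCC2, differed by 0.14 (SE 0.14) and at its other tested probe by -0.06. Stk39 was tested and Wnk3, Wnk4, Cab39, Klhl3 and Neto2, which encodes an auxiliary protein of KCC2, were not.

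The sodium pump supplies the gradients on which both kinds of cotransporter depend. Of its subunits and FXYD regulators, 4 genes were tested, 2 were higher and 2 lower, 0 passed in limma, and the median difference was 0.00, or -0.14 without knockout replicate 2. Atp1b2, a beta subunit of glia and neurons, read 8.25, 8.41 and 8.01 in knockout and 8.23, 8.45 and 8.70 in control brains, a difference of -0.24 (SE 0.17). Fxyd6, Atp1b3 and Atp1b1 differed by -0.03, 0.02 and 0.04. Fxyd7 was not tested.

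Of 19 genes for other chloride and bicarbonate transporters, chloride channels and carbonic anhydrases, 13 were tested, 5 were higher and 8 lower, 0 passed in limma, and the median difference was -0.10, or -0.06 without knockout replicate 2. Ttyh3, a member of the tweety family of chloride-channel-related membrane proteins, read 11.09, 11.15 and 11.02 in knockout and 11.42, 11.22 and 11.40 in control brains. All 3 knockout brains were below all 3 controls, and the difference was -0.26 (SE 0.12, unadjusted p = 0.0682). Clcn7, the chloride-proton exchanger of lysosomes, also had groups that did not overlap, at 9.64, 9.68 and 9.76 against 10.03, 9.83 and 9.84, a difference of -0.21 (SE 0.12). Car4, a membrane-bound carbonic anhydrase, differed by -0.27 (SE 0.14, unadjusted p = 0.0944), and Clcn3, an endosomal exchanger, by -0.16 (SE 0.13) and at its other tested probe by -0.07. Groups that did not overlap were found for 9.3% of all tested probes, as given above.

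GABA-A and glycine receptors are the chloride channels whose effect on the membrane depends on the chloride level that the cotransporters set. Of 18 genes for their subunits and scaffolds, 4 were tested, 1 was higher and 3 lower, 0 passed in limma, and the median difference was -0.12, or -0.28 without knockout replicate 2. Gabra3, an alpha subunit prominent in the embryonic brain, read 6.95, 7.28 and 7.06 in knockout brains, all 3 detected. The control brains read 6.09, 6.13 and 7.16, with 1 of 3 detected, so that control replicate 3 lay among the knockout values. The difference was 0.64 (SE 0.30, unadjusted p = 0.0688). Gabrb2 differed by -0.50 (SE 0.49), the scaffold gene Gphn by -0.12 (SE 0.16), with 0.03 and -0.01 at its 2 other tested probes, and the embryonic glycine receptor gene Glra2 by -0.11 (SE 0.21).

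Genes whose levels followed a member most closely were listed for the 2 members whose brightest probe was detected on all 6 arrays, among 8352 genes, as a description with no test. For Slc12a2 they were Mgat1, which encodes a glycosyltransferase of the Golgi, with Pearson r = 0.987 over the 6 arrays, Cnih4 with 0.981 and the BMP receptor gene Acvr1 with 0.975. For Slc12a7 they were Garre1 with r = 0.989, Alyref2 with 0.986 and Hsp90b1, which encodes a chaperone of the endoplasmic reticulum, with 0.986. Mgat1 ran from 6.69 in knockout replicate 2 to 8.29 in control replicate 3, the same arrays that were lowest and highest for Slc12a2. This match follows largely from the choice of Mgat1 as the closest of 8352 genes over 6 arrays. Slc12a5 was left out of this listing because it was not detected in control replicate 3.

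Markers of several cell types moved between the arrays or groups, and their values are given here beside those of the members. In whole tissue, fewer cells of a type and less RNA per cell cannot be told apart. Knockout replicate 2 stood apart from the other 5 arrays, with a score of 40.69 on the first principal component (32.5% of the variance) against -14.81 to -0.84. The labels give no litter, sex or slide. The 1 probe for Rest was not detected on any array, at 5.17 to 5.65, so the array could not check the knockout, and Trp53 was not analysed here.

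The brain label was checked against markers of neurons and progenitors. Of 13 genes of young neurons 11 were tested, with Nefl and Snap25 as the exceptions, and Dcx, which encodes a microtubule protein of migrating neurons, read 13.90, 14.16 and 13.71 in knockout and 13.75, 13.73 and 13.69 in control brains. Its difference was 0.20 (SE 0.14), or -0.04 at another probe, and Syt1, Tubb3 and Nefm differed by 0.37, 0.36 and 0.32, with 0 neuronal markers passing. Of the 11 tested neuronal genes 7 were higher and 4 lower in knockout brains, with a median difference of 0.08. The log2 of the summed level of the neuronal list ran from 16.62 to 17.20 in knockout and from 16.79 to 16.83 in control brains. Knockout replicate 2 was the highest, and against the control mean its median neuronal marker was 0.44 higher, while those of knockout replicates 1 and 3 were at -0.01 and -0.13. The Slc12a5 value was also highest in knockout replicate 2, at 0.84 above the control mean. It was 0.70 and 0.28 above that mean in knockout replicates 1 and 3. In control replicate 1 it was 0.38 above the mean, with a neuronal median of 0.03. Single markers spread around the list median. In knockout replicate 1, Tubb3, Syt1, Dcx and Nefm stood at 0.85, 0.42, 0.18 and -0.21 against the control mean. The part of neuronal RNA in the Slc12a5 difference was not tested. Of 9 progenitor genes 7 were tested, with Pax6 and Prom1 as the exceptions, and their log2 sum ran from 15.77 to 16.02 in knockout and from 15.66 to 15.86 in control brains. The progenitor genes Hes1, Nes, Hes5 and Fabp7 differed by -0.43, 0.18, 0.23 and 0.22, and 0 passed.

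Choroid plexus, where NKCC1 is abundant, had 7 of 9 marker genes tested, with Kl and Kcnj13 as the exceptions. The log2 sum of these markers was 14.36, 13.84 and 14.43 in knockout brains. It was 14.41, 14.69 and 14.96 in control brains, so that knockout replicate 2 was lowest and control replicate 3 highest, as for the brightest Slc12a2 probe. The other tested Slc12a2 probe was lowest in knockout replicate 2 (11.31) but highest in control replicate 2 (11.42), with control replicate 3 at 11.37. Of the 7 genes 6 were lower in knockout brains, with a median difference of -0.66, or -0.25 without knockout replicate 2. The exception was Otx2, a homeobox gene also active in forebrain and midbrain, which read 13.41, 13.73 and 13.23 in knockout and 13.26, 13.35 and 13.50 in control brains, so that in knockout replicate 2 it made up most of the sum. Ttr, the transthyretin of choroid plexus, was 12.94, 7.89 and 13.10 in knockout and 13.19, 13.58 and 14.01 in control brains. Kcne2, Msx1 and Clic6 differed by -0.77, -0.66 and -1.71.

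Markers of mesenchyme and meninges were lower in knockout brains for 9 of 9 genes, with a median difference of -1.20, or -0.12 without knockout replicate 2, and 2 of them had an unadjusted p under 0.05. Slc6a13, a GABA transporter of meninges, read 6.64, 5.34 and 6.27 in knockout and 7.80, 7.99 and 7.49 in control brains. Dcn, the matrix protein decorin, read 9.82, 8.34 and 10.48 against 10.69, 11.10 and 11.59. For both genes all 3 knockout brains were below all 3 controls, where 9.3% of all tested probes had groups that did not overlap. Among the other markers named here, Ttr, Sox17 and Hba-a1 were likewise lower without overlap, and Nes and C1qb were higher without overlap. The differences of -1.68 for Slc6a13 (limma, unadjusted p = 0.00157, adjusted p = 0.910) and -1.58 for Dcn (unadjusted p = 0.0212, adjusted p = 0.999) did not pass after adjustment. Col1a1 and Lum differed by -1.63 and -1.43. The log2 sum of the 9 genes ran from 10.48 in knockout replicate 2 to 13.42 in knockout replicate 3 and was 13.55 in control replicate 3 and 13.67 in control replicate 2, with control replicate 1 between knockout replicates 1 and 3. Of 11 genes of endothelium and pericytes 7 were tested and 6 were lower, with a median of -0.28, or -0.19 without knockout replicate 2, and log2 sums from 11.54 to 12.40 in knockout and from 12.30 to 12.48 in control brains. Sox17 (-0.91, unadjusted p = 0.0229) and Flt1 (-0.60, unadjusted p = 0.0488) did not pass after adjustment in limma, and Tek and Esam differed by -0.56 and -0.28. Of 10 erythroid genes 8 were tested and 7 were lower, with a median of -0.08, or 0.13 without knockout replicate 2, and sums from 17.41 to 17.85 in knockout and from 17.66 to 17.77 in control brains. Klf1, Epor, Hba-a1 and Slc4a1 differed by -0.20, -0.08, -0.07 and -0.15. Hba-a1, which weighs heavily in these sums, read 15.97 to 16.12 over the 6 arrays, and saturation of so bright a signal was not tested. Of 10 genes of microglia and macrophages 9 were tested, 5 higher and 4 lower, with a median of 0.06, or 0.17 without knockout replicate 2, and sums from 11.07 to 12.10 in knockout and from 11.83 to 12.29 in control brains. Pf4 and C1qa differed by -0.81 and -0.44 and C1qb by 0.60, while Mrc1 read 8.41, 6.77 and 8.88 in knockout and 8.84, 9.23 and 8.99 in control brains. The part of these tissues in the Slc12a2, Slc12a5 and Slc12a7 values was not tested. Without knockout replicate 2 the differences were -0.08 for the brightest Slc12a2 probe, -0.34 for Slc12a7 and 0.49 for Slc12a5, and the median of the young neuron list was -0.07, against 0.08 with all arrays.

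**Figure D3:**
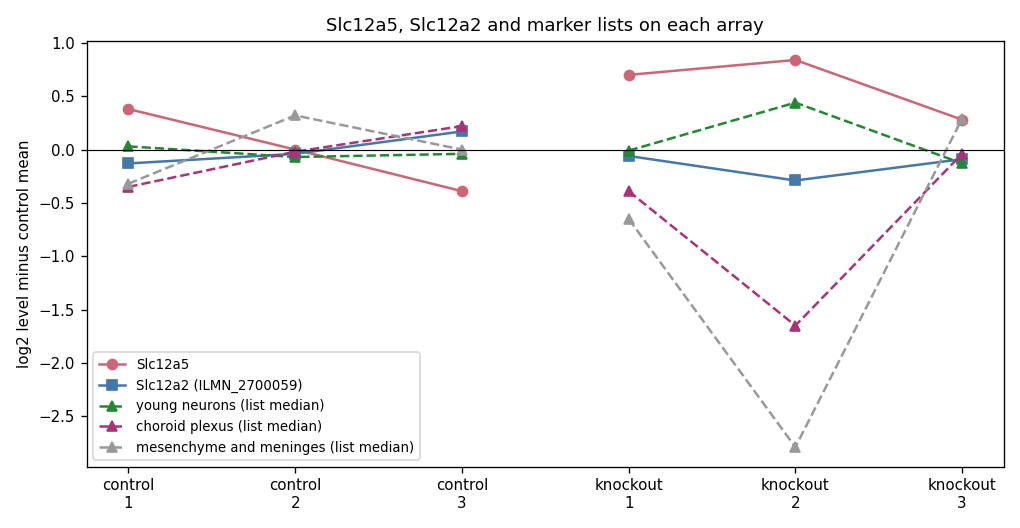
Log2 level of Slc12a5 and of the brightest Slc12a2 probe on each array, minus the mean of the control arrays, with the median of the same quantity over the tested marker genes of young neurons, choroid plexus, and mesenchyme and meninges. Lines join points of 1 group only to guide the eye, since replicates have no order. Knockout replicate 2 has the highest neuronal markers (0.44) and the lowest choroid plexus (-1.65) and mesenchyme (-2.79) markers.

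The directions of the 3 members with tested probes were then followed through other ways of processing the arrays. Slc12a5 was higher in knockout brains under every alternative that gave a value, from 0.23 to 0.80 on the log2 scale, with unadjusted p from 0.0132 to 0.12 and adjusted p of 0.682 or more. Slc12a7 was lower under every alternative that gave a value, from -0.34 to -0.18. The brightest Slc12a2 probe was lower by amounts from -0.21 to -0.06, within its own interval around 0.

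**Figure D4:**
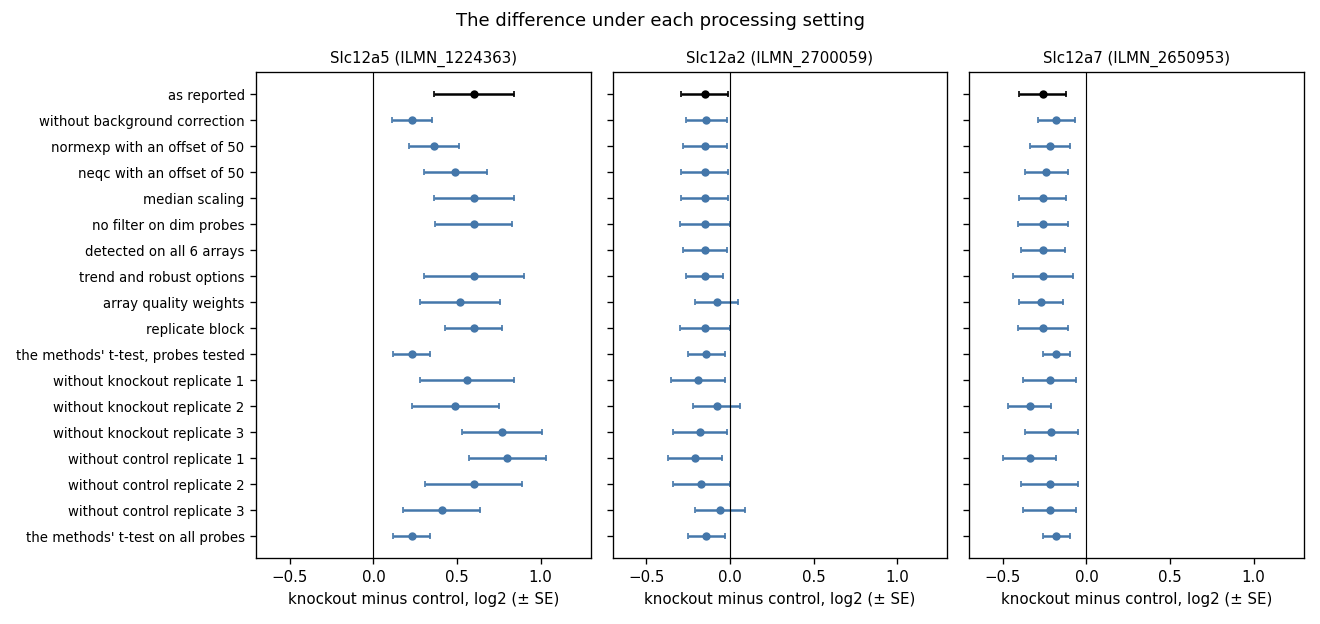
Difference between knockout and control brains on the log2 scale (point) with its SE (bar) for Slc12a5, the brightest Slc12a2 probe and Slc12a7, as reported (black) and under each alternative setting or with 1 array left out (blue). Slc12a5 runs from 0.23 without background correction to 0.80 without control replicate 1, and it has no value where a probe had to be detected on all 6 arrays.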

How the data were processed

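Total RNA from 6 E12.5 mouse brains was hybridised to Illumina mouse Ref8 bead arrays. Per the methods, the authors used BeadStudio and then quantile normalization in the lumi package. No source used here gives the lumi version or says whether background was subtracted. In the deposited table there is a linear intensity and a detection p-value from the authors' software for each probe and array. Its sorted intensities differed by at most 1.61% between arrays, so it was treated as already normalized.

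Of the 25699 lines, 2 had an empty ID cell, and later IDs were displaced by 2 lines (84.8% of the table), including those of all 7 member probes. The empty cells were dropped and IDs paired with values in order. Adjacent probes of 1 gene then correlated best (r = 0.4824, 6232 pairs), and any other displacement gave 0.2557 or less.

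The neqc function of limma 3.58.1 (R 4.3.3) corrected the background, applied quantile normalization and gave log2 levels, with an offset of 16 and negative controls inferred from the detection p-values. Probes detected (p under 0.05) on at least 3 of 6 arrays were tested with lmFit and eBayes (two-sided, no covariates, Benjamini-Hochberg over 13755 probes). The fit was first run on simulated data with the same spread for all probes and larger changes than those of the members. That run does not give the power for the members. The number of arrays limits the precision. Gene names came from the platform annotation, where 23977 probes had 1 symbol, 0 several and 1719 none; coordinates and promoters are from RefSeq (GRCm38.p6).

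The members and gene lists were chosen with earlier results of these data known. Named were the members, all measured SLC12 genes, from each other list the 4 tested genes with the smallest unadjusted p by their brightest tested probe, and the 3 genes most correlated with a member's brightest probe. Otx2, Stk39 and untested genes were added after their values were seen. Alternatives covered background correction, offset, scaling, filters, fit options, array weights, a replicate block, deposited IDs, the methods' t-test and leaving out each array. The methods' t-test on all probes was chosen after seeing the data. Some listed genes are not reported here.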

Additional observations from a re-analysis of the deposited data

How the results depend on the processing

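No alternative reversed a member's difference or brought it past an adjusted p of 0.05. With 1 array left out, the difference ran from 0.41 to 0.80 for Slc12a5, from -0.21 to -0.06 and from -0.05 to -0.01 for the tested Slc12a2 probes, from -0.34 to -0.21 for Slc12a7 and from 0.47 to 1.01 for Slc12a5 minus Slc12a2. For Slc12a5 it was 0.23 by the methods' t-test, 0.49 with neqc at an offset of 50 and 0.52 with array weights. Over the whole table, 0 probes passed in the reported limma fit (632 at an unadjusted p under 0.05), against 1 with the robust and trend options of eBayes, 1 with normexp, 1 with no background correction, and 0 under the other alternatives, with 481 to 1169 probes at an unadjusted p under 0.05; no member was among those called. With 1 fewer array in a group the smallest adjusted p lay between 0.195 and 1. After each group's mean was subtracted, same-numbered knockout and control brains had correlations of -0.013, -0.079 and -0.154. Such deviations sum to 0 within a group, so these values cannot show whether the numbers pair littermates. With the number as a replicate block the Slc12a5 difference was 0.60 (limma, unadjusted p = 0.0149, adjusted p = 0.999) and 0 probes passed. With the probe IDs as deposited none of the 4 tested member probes had a value, because the lines they would then receive were detected on too few arrays. Slc12a5 could not be fitted where detection on all 6 arrays was required. Signals of Slc12a5 and Slc12a4 near background limit what can be read from them.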
